A study of Mus musculus with 20 samples.

Results

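Enterocytes, the absorptive cells of the intestinal lining, take up sugars, peptides, salt and water through transporters in their apical and basal membranes. The set described here is 9 such genes: the sugar transporters Slc5a1, Slc2a2 and Slc2a5, the peptide transporter Slc15a1, the ion exchangers Slc26a3 and Slc9a3, the water channel Aqp8, and the carbonic anhydrases Car1 and Car4. They were chosen by name, and all 9 were found among the 24795 genes of the deposited table. The 20 libraries form 3 groups: Apc Min with control treatment (7 libraries), Apc Min with DM-aKG (6 libraries) and wild type (WT), listed as untreated (7 libraries). DM-aKG is the dimethyl ester of alpha-ketoglutarate, an intermediate of the TCA cycle, in a form that enters cells. Apc Min mice carry a germline nonsense mutation in 1 copy of Apc, a brake on Wnt signalling, in every tissue, and form adenomas mainly in the small intestine. The sources used here give no age, sex, dose or duration. Control and WT differ in both genotype and treatment, which cannot be told apart.

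Uptake of glucose and galactose across the brush border runs through Slc5a1 (SGLT1), which couples the sugar to sodium, while fructose enters through Slc2a5 (GLUT5) and these sugars leave the cell basally through Slc2a2 (GLUT2). Slc15a1 (PEPT1) carries di- and tripeptides with protons. Salt is absorbed by paired exchange, sodium for protons through Slc9a3 (NHE3) and chloride for bicarbonate through Slc26a3 (DRA), with carbonic anhydrases supplying protons and bicarbonate. The set spans the length of the gut: Slc2a2 and Slc2a5 are known from the proximal small intestine, and Aqp8 and Car1 in the mouse are known mainly from the colon.

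Levels are RPKM (reads scaled for gene length and sequencing depth), given as the lowest, the median and the highest library of a group, and then as mean ± SD over 7 WT, 7 control and 6 DM-aKG libraries. A change is a difference of log2(RPKM + 1), which understates the change of genes with low values, and is called at a Benjamini-Hochberg adjusted p under 0.05 over the 12415 genes that reached 1 RPKM in at least 6 libraries. Of the 9 genes 7 passed this filter. Aqp8 and Car1 did not and were described without a test. The median change of all genes tested was -0.14 for DM-aKG over control, 0.20 for control over WT and 0.05 for DM-aKG over WT. Under median-of-ratios scaling the first 2 became -0.001 and -0.003, so small changes in those comparisons depend on the scaling.

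The sample titles name tissue, other label fields name intestinal organoids, and the labels' protocols name an organoid medium and a low-glutamine medium. The 13 smooth muscle markers summed to 465 to 2026 RPKM over the 20 libraries, and markers of fibroblasts, endothelium and leukocytes were present in each group. Enterocyte markers (10 genes with Vil1, Sis and Fabp2) summed to 6151 to 26840 RPKM. Of 14 colon markers 11 stayed under 1 RPKM in every WT library, 12 in every control library and 11 in every DM-aKG library, with Hoxd12 at 0 in all 20, while the ileal bile acid binding protein Fabp6 ranged from 158 to 9728 RPKM. The labels do not tie libraries to animals, and p-values therefore cover only the variation among libraries, which may be technical. In bulk RNA, fewer enterocytes and less RNA of a gene per enterocyte cannot be told apart.

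In the control Apc Min libraries most of the uptake genes stood below WT and the sodium exchanger above it. Slc5a1, Slc2a2, Slc15a1 and Car4 fell relative to WT, and Slc9a3 rose, so that 5 of the 7 genes tested were called where 58.8% of all genes tested were (15.7% lower and 43.2% higher). With DM-aKG relative to control the picture turned for several of them: Slc5a1, Slc15a1 and Slc26a3 rose and Slc9a3 fell, which made 4 of 7 against 33.5% of all genes (5.89% higher, 27.6% lower). Between DM-aKG and WT, 3 genes (Slc5a1, Slc15a1 and Car4) stayed lower and Slc26a3 was higher, 4 of 7 against 39.2% of all genes (21.9% higher, 17.3% lower). These 3 comparisons share their libraries in pairs and are not independent of each other. Under median-of-ratios scaling the share of higher genes among all those called was 1367 of 3201 for DM-aKG over control, where it was 731 of 4153 without it, and 3293 of 6684 for control over WT, where it was 5359 of 7303.

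**Figure D1:**
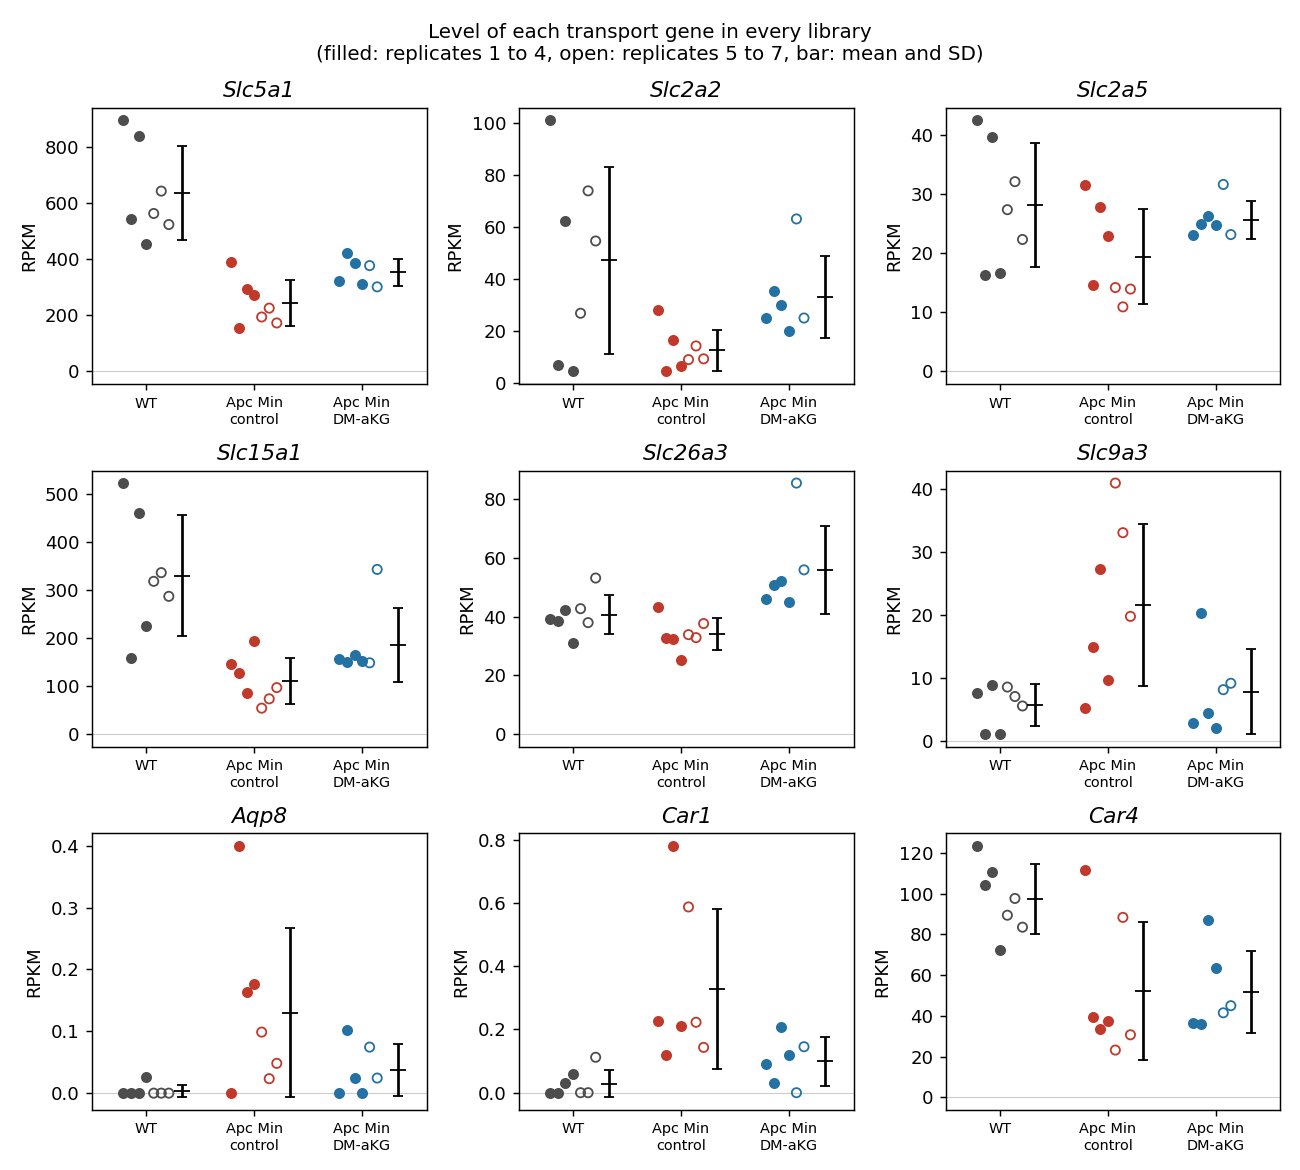
RPKM of the 9 transport genes in each of the 20 libraries, by group (filled points replicates 1 to 4, open points replicates 5 to 7), with the mean and SD of each group as a black bar. Slc5a1 is above 454 RPKM in the 7 WT libraries and below 421 RPKM in the 13 Apc Min libraries, and the axes of Aqp8 and Car1 end below 1 RPKM.

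Slc5a1, on chromosome 5 (33104219 to 33162870 in mm10, a protein-coding gene of the forward strand), was the most abundant gene of the set. It lay at 454, 562 and 894 RPKM (lowest, median, highest) in WT, at 154, 225 and 391 RPKM in the control group and at 301, 349 and 420.2 RPKM in DM-aKG libraries. The WT libraries overlapped neither Apc Min group, while all 6 DM-aKG libraries lay above the control median and 1 of them above every control library. The means were 636 ± 167, 242 ± 82.5 and 353 ± 47.8 RPKM. Slc5a1 fell by 1.42 on the log2 scale in control relative to WT (SE 0.19, limma adjusted p = 3.5e-06), a call kept in all 32 alternatives. It rose by 0.59 with DM-aKG (SE 0.20, adjusted p = 0.0247) and remained 0.82 below WT there (log2 change -0.82, SE 0.20, adjusted p = 0.00312). The rise with DM-aKG was lost on removal of control replicate 2 (adjusted p = 0.0566) or 7 (0.0556), and in replicates 1 to 4 alone (0.311, over alternatives 0.00419 to 0.311). With the smooth muscle score as a covariate it was not called either (0.166).

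Slc2a2, on chromosome 3 (28697903 to 28731359, forward strand), varied more among WT libraries than between groups. Its values were 4.85, 54.7 and 101 RPKM in WT, 4.59, 9.38 and 28.1 RPKM in the control group and 20.1, 27.7 and 63.2 RPKM in DM-aKG libraries. The 3 groups overlapped, yet no control library lay above the WT median, all 6 DM-aKG libraries lay above the control median, and 3 of them lay above every control library. The means were 47.3 ± 35.9, 12.7 ± 7.99 and 33.2 ± 15.6 RPKM. Slc2a2 fell by 1.43 in control relative to WT (SE 0.56, adjusted p = 0.0347). The difference of 1.41 with DM-aKG (SE 0.58, 95% interval 0.20 to 2.63) did not pass (adjusted p = 0.0673), and DM-aKG differed from WT by -0.01 with an interval of -1.23 to 1.20. The fall in control was lost on removal of WT replicate 1, 3, 6 or 7, or of replicate 2, 4, 5 or 7 of the control group (adjusted p 0.054 to 0.0839), and the difference with DM-aKG was called without control replicate 1 or WT replicate 2 or 4 (0.032 to 0.0463). An antisense gene, 1700112D23Rik, overlaps Slc2a2, and since strand use in the counting is not given, their reads cannot be told apart.

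The spread of Slc2a2 in WT moved with the summed level of markers of the proximal small intestine, 10 genes such as Rbp2, Fabp1, Gata4 and Lct. Between groups the calls among the 10 markers went both ways: in control relative to WT 2 were higher and 3 lower, beside 43.2 and 15.7% of all genes. With DM-aKG relative to control none was called higher and 3 were lower, beside 5.89 and 27.6% of all genes. Onecut2, called in both comparisons, was at most 0.466 RPKM in WT and had a median of 0.543 RPKM with DM-aKG. It passed the filter on low values mainly through control libraries, so its calls follow from the filter. Listed from the lowest to the highest sum of the 10 markers, the WT replicates were 4, 2, 5, 7, 3, 6 and 1, at 183, 254, 474, 953, 1295, 2156 and 3183 RPKM. Slc2a2 stood in the same order, at 4.85, 6.95, 26.9, 54.7, 62.5, 74.0 and 101 RPKM. WT replicates 4 and 2 also held the lowest Slc9a3 of all libraries, 1.20 and 1.22 RPKM. The same marker sum was 328 to 1265 RPKM in the control group and 484 to 1364 RPKM in DM-aKG libraries, within the WT range. Control replicate 4 had a sum of 1265 RPKM with Slc2a2 at 6.51 RPKM, beside 62.5 RPKM in WT replicate 3 at a sum of 1295 RPKM. The sums weigh abundant genes most. Rbp2 had the highest mean of the 10 markers in each group, 595 RPKM in WT, 586 in control and 507 with DM-aKG. Fabp1 was next in WT and averaged 354, 60.1 and 161 RPKM in the same groups. The sums differed in make-up between WT and control. Lct was at most 3.17 RPKM in the control group, with a median of 57.3 RPKM in WT. Gata4 averaged 1.86 RPKM in the control group and 11.3 RPKM in WT. Whether libraries of like sum were alike in region was not tested. With the proximal markers as a covariate, an alternative added after these values were seen, Slc2a2 rose by 1.47 with DM-aKG (adjusted p = 0.0125). Its fall of 0.92 relative to WT was then not called (0.0777), where over all alternatives the adjusted p ran from 5.94e-05 to 0.373. Leaving out WT replicates 2 and 4 gave Slc2a2 log2 changes of 1.41 with DM-aKG (adjusted p = 0.00544) and -2.32 for control over WT (5.94e-05).

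**Figure D2:**
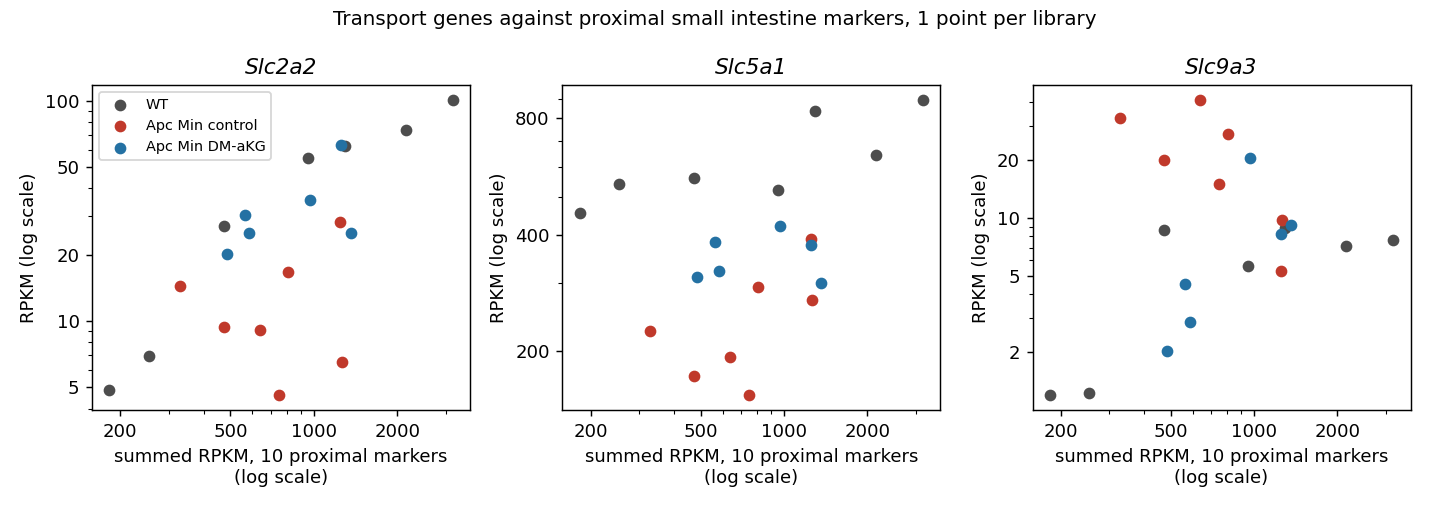
RPKM of Slc2a2, Slc5a1 and Slc9a3 (vertical log scales) against the summed RPKM of 10 proximal small intestine markers (horizontal log scale), 1 point per library, coloured by group. In WT, Slc2a2 goes from 4.85 to 101 RPKM in the order of the marker sums, while at sums between 328 and 1265 RPKM the control libraries have Slc2a2 at 4.59 to 28.1 RPKM. Libraries of like sum can differ in which markers make it up, and Rbp2 had the highest mean of the 10 in each group.

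Slc2a5, on chromosome 4 (150119283 to 150144169, forward strand), the fructose transporter, was not called in any comparison. It lay at 16.4, 27.4 and 42.6 RPKM in WT, 10.9, 14.7 and 31.7 RPKM in the control group and 23.1, 24.9 and 31.7 RPKM in DM-aKG libraries. The control group fell into separate ranges, 14.7 to 31.7 RPKM in replicates 1 to 4 and 10.9 to 14.2 RPKM in replicates 5 to 7. All 6 DM-aKG libraries stood above the control median. Its log2 changes were -0.52 for control over WT (95% interval -1.004 to -0.04, adjusted p = 0.0588) and 0.47 for DM-aKG over control (-0.04 to 0.97, adjusted p = 0.142). In 10 of 32 alternatives the former was called, median-of-ratios scaling among them (log2 change -0.76, adjusted p = 0.0175), and so were removals of WT replicate 2 or 4 and of replicate 1, 3 or 4 of the control group (adjusted p 0.0175 to 0.0489). The change for DM-aKG over control was called in 2 of 32 alternatives. It ran from 0.08 to 1.01 over all of them (limma adjusted p 0.0114 to 0.897).

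Slc15a1, on chromosome 14 (121459621 to 121505252, reverse strand), the only apical transporter of small peptides in the set, had the largest fall in control libraries of the 7 genes tested. Its values were 160, 318 and 522 RPKM in WT, 54.3, 97.0 and 193 RPKM in the control group and 149, 155 and 343 RPKM in DM-aKG libraries. In 6 of 7 control libraries it lay below every WT library, and 5 of the 6 DM-aKG libraries were packed between 149 and 164 RPKM with replicate 6 alone at 343 RPKM. The means were 329.8 ± 126, 111 ± 47.7 and 186 ± 77.1 RPKM. Slc15a1 fell by 1.58 in control relative to WT (SE 0.28, adjusted p = 8.64e-05), which held in all 32 alternatives. With DM-aKG it rose by 0.77 (SE 0.29, adjusted p = 0.0466), and it remained below WT (log2 change -0.80, SE 0.29, adjusted p = 0.0349). Both of these calls were near the threshold: the former was lost in 18 of 32 alternatives and the latter in 14. Without DM-aKG replicate 6 the rise was 0.58 (adjusted p = 0.127), and in replicates 1 to 4 alone it was 0.23 (0.698, over alternatives 0.002 to 0.698). The other single libraries whose removal ended the call were WT replicates 5, 6 and 7, control replicates 3, 5, 6 and 7, and replicates 1, 3, 4 and 5 of the DM-aKG group (adjusted p 0.0536 to 0.0955). The call against WT was lost on removal of WT replicate 1, 3, 5 or 6, or of any DM-aKG replicate from 1 to 5 (adjusted p 0.0513 to 0.0766).

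**Figure D3:**
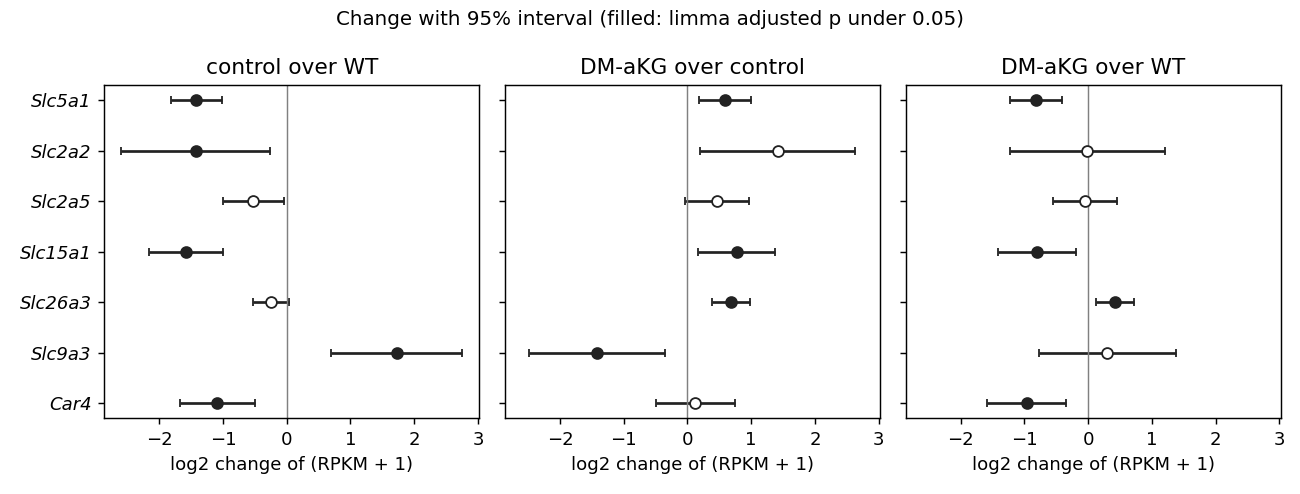
Log2 change of (RPKM + 1) of the 7 genes tested in the 3 comparisons, with 95% intervals from limma, filled where the adjusted p is under 0.05. Slc9a3 lies opposite to Slc5a1 and Slc15a1 in control over WT (1.72 against -1.42 and -1.58) and in DM-aKG over control (-1.42 against 0.59 and 0.77).

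The exchangers that pair for salt uptake moved apart. Slc26a3, on chromosome 12 (31390871 to 31473917, forward strand), is a chloride and bicarbonate exchanger whose loss in humans causes congenital chloride diarrhoea. It lay at 31.2, 39.3 and 53.1 RPKM in WT, 25.4, 32.9 and 43.3 RPKM in the control group and 45.04, 51.4 and 85.4 RPKM in DM-aKG libraries. The DM-aKG libraries did not overlap the control libraries, and 2 of 6 stood above every WT library. The means were 40.7 ± 6.66, 34.04 ± 5.45 and 55.9 ± 15.0 RPKM. Slc26a3 rose by 0.68 with DM-aKG relative to control (SE 0.14, adjusted p = 0.00107) in all 32 alternatives (0.54 to 0.97, adjusted p 0.000256 to 0.0238). It was also higher than WT (log2 change 0.43, SE 0.14, adjusted p = 0.0226), but not without DM-aKG replicate 5 (0.30, adjusted p = 0.0674) or after median-of-ratios scaling (0.35, 0.0646). For control over WT it did not pass (-0.25, 95% interval -0.54 to 0.03, adjusted p = 0.12), though after median-of-ratios scaling it was called lower (-0.49, 0.00729).

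Slc9a3, on chromosome 13 (74121457 to 74169442, forward strand), the sodium and proton exchanger of the brush border, was the only gene of the set called higher in control than in WT. It lay at 1.20, 7.10 and 8.86 RPKM in WT, 5.29, 19.8 and 41.01 RPKM in the control group and 2.03, 6.37 and 20.4 RPKM in DM-aKG libraries. In 6 of 7 control libraries it was above every WT library, and the highest DM-aKG value was replicate 2, with the others at 2.03 to 9.21 RPKM. The means were 5.74 ± 3.28, 21.6 ± 12.9 and 7.88 ± 6.77 RPKM. Slc9a3 rose by 1.72 in control relative to WT (SE 0.49, adjusted p = 0.00563). It fell by 1.42 with DM-aKG (SE 0.51, adjusted p = 0.0388), a call lost in 14 of 32 alternatives, quantile normalization (-1.31, adjusted p = 0.0627), median-of-ratios scaling (-1.26, 0.0749) and a pseudocount of 0.1 (-1.58, 0.0516) included. The single libraries whose removal ended it were replicates 3, 5, 6 and 7 of the control group and 1, 3, 4 and 5 of the DM-aKG group, with an adjusted p of 0.0507 to 0.0959. With the smooth muscle score as a covariate neither the rise in control (0.82, adjusted p = 0.39) nor the fall with DM-aKG (-0.62, 0.536) was called. DM-aKG and WT differed by 0.30 (95% interval -0.77 to 1.37). Its scaffold Slc9a3r1, singled out here after its values were seen, did the opposite: it fell by 0.9998 on the log2 scale in control relative to WT (634 ± 129 to 332 ± 128 RPKM, adjusted p = 0.000223) and rose by 0.63 with DM-aKG (483 ± 40.7 RPKM, adjusted p = 0.0219).

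The promoters of these exchangers are shown because their genes moved in opposite directions with DM-aKG. Each is the RefSeq window of 300 bases from 250 before to 50 after a start site (GRCm38.p6, the mm10 assembly), chr12:31437969-31438268 for Slc26a3 and chr13:74121163-74121462 for Slc9a3, 5′ to 3′ on the forward strand, and capitals mark matches to the motifs searched.
Slc26a3: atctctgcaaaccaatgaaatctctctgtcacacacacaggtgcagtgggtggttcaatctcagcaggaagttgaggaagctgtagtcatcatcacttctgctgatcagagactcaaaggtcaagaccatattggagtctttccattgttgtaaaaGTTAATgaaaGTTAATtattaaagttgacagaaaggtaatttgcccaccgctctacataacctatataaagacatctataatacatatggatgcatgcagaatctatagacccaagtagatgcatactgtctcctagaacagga
Slc9a3: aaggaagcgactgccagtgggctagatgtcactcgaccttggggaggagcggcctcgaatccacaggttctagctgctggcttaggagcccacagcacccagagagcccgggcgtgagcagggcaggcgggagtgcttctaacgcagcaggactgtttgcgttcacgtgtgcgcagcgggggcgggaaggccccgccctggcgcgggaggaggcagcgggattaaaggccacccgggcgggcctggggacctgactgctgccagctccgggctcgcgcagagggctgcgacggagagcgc
The Slc26a3 window lies inside the gene interval given above (31390871 to 31473917), so its start site is not the first base of that interval. The Slc26a3 window holds GTTAAT, part of the site of the hepatocyte nuclear factor HNF1, at 2 places, 94 and 84 bases before this start. Of the 32851 RefSeq promoters of this length 7.1% hold that motif on either strand. The other motifs searched, again on either strand, were CATAAA of the CDX factors (in 11.9% of promoters), CAAAGTC of the HNF4 factors (in 4.44%), the GATA-factor motif written AGATAA (in 11.2%) and ATCAAAG of the TCF/LEF factors (in 3.73%). None of them was in the 8 windows matched for the set (Car1 was not matched), and GTTAAT was in the Slc26a3 window alone. The windows also differ in base composition, with 39.3% G and C for Slc26a3 and 68.7% for Slc9a3.

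Car4, on chromosome 11 (84957786 to 84966044, forward strand), a carbonic anhydrase anchored on the outer face of the membrane, fell in the Apc Min libraries with and without DM-aKG. It lay at 72.5, 97.7 and 123 RPKM in WT, 23.2, 37.4 and 112 RPKM in the control group and 35.9, 43.2 and 87.0 RPKM in DM-aKG libraries. In 5 of 7 control libraries it stood below every WT library, with control replicates 1 and 6 apart at 112 and 88.4 RPKM, and 5 of 6 DM-aKG libraries were below every WT library. The means were 97.4 ± 17.2, 52.1 ± 33.9 and 51.6 ± 20.1 RPKM. Car4 fell by 1.09 in control (SE 0.28, adjusted p = 0.00288) and by 0.96 in DM-aKG libraries relative to WT (SE 0.30, adjusted p = 0.0152). DM-aKG and control differed by 0.13 with a 95% interval of -0.49 to 0.74. With the smooth muscle score as a covariate the fall in control was 0.11 and was not called (adjusted p = 0.815). The score itself moved with the groups: all 13 smooth muscle markers were lower in control than in WT and all 13 rose with DM-aKG. Its part in the Car4 result was not tested.

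Aqp8, on chromosome 7 (123462291 to 123468004, forward strand), and Car1, on chromosome 3 (14766216 to 14808368, reverse strand), were close to 0 in every library. Aqp8 was listed at 0 in 9 of 20 libraries and reached 0.0254 RPKM in WT, 0.399 RPKM in the control group and 0.101 RPKM in DM-aKG libraries. Car1, which red blood cells also make, was at 0 in 5 libraries and reached 0.112, 0.78 and 0.208 RPKM in the same groups. Their values above 0 were, within 0.1, whole multiples of 1 step (0.0249 RPKM for Aqp8 and 0.0296 RPKM for Car1 at the mean depth), and the highest came to 16 and 28 steps, so each library held few reads of either gene. The lowest control value of Car1 was 0.119 RPKM (replicate 2, relative depth 0.996), beside the highest WT value of 0.112 RPKM (replicate 7, relative depth 1.056). At these depths both are the same number of steps, so the control and WT libraries met there. Without the filter on low values, control over WT was called for Car1 (log2 change 0.35, adjusted p = 0.00216) and Aqp8 (0.16, 0.0156), and DM-aKG over control for Car1 (-0.25, 0.038). Of all genes, 44.7% were called for control over WT and 24.9% for DM-aKG over control without that filter. Red blood cell markers summed to 15.3 to 51.6 RPKM in WT, 8.17 to 320.2 RPKM in the control group and 60.5 to 405 RPKM in DM-aKG libraries. All 5 of those tested were higher in both Apc Min groups than in WT, and their part in the Car1 values was not tested.

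No difference between replicates 1 to 4 and replicates 5 to 7 in any of these changes passed the test (interaction of group and replicate set in limma). These sets, parted in earlier work on the same libraries, differ in the ribosomal transcript Rn45s (3836 to 6558 against 1078 to 3621 RPKM). The smallest adjusted p were for DM-aKG over control: Slc15a1 changed by 1.39 more in replicates 5 to 7 (limma interaction, adjusted p = 0.391) and Slc2a5 by 0.93 more (0.436). Of all genes, 0.209% passed that interaction for DM-aKG over control. Within replicates 1 to 4 (4 libraries a group) Slc26a3 was the 1 of the 7 genes called higher with DM-aKG and none was called lower, where 3.25% of all genes were higher and 14.6% lower. Within replicates 5 to 7 (3 control, 2 DM-aKG and 3 WT libraries) 5 were higher and 1 was lower, beside 3.06% and 22.4% of all genes.

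The counts of the lists that follow stand beside these shares of all genes tested. In control relative to WT 15.7% were lower and 43.2% higher. With DM-aKG 5.89% were higher and 27.6% lower than in control, and 21.9% higher and 17.3% lower than in WT. Among 27 other genes of sugar uptake and use, 25 were tested. In control relative to WT 11 fell and 7 rose (median log2 change -0.29, all genes 0.20), but in replicates 1 to 4 alone 5 fell and 6 rose (median -0.17). Slc5a4a, a relative of Slc5a1, fell from 17.7 ± 8.76 to 1.03 ± 0.531 RPKM and Mgam, which splits starch fragments at the brush border, from 421 ± 43.1 to 260 ± 56.3 RPKM. The rises with the smallest p were those of Slc2a1, the general glucose transporter GLUT1, from 4.80 ± 0.962 to 48.9 ± 16.4 RPKM, and of the sugar efflux gene Slc50a1, which changed by only 0.45 on the log2 scale. With DM-aKG relative to control 5 rose and 2 fell (median 0.53, all genes -0.14), and in replicates 1 to 4 alone 3 rose and 2 fell (median 0.20). Slc2a4, the insulin-responsive GLUT4, rose from 4.57 ± 1.53 to 8.27 ± 0.401 RPKM and Mgam to 371 ± 45.3 RPKM, while Slc2a1 fell to 12.7 ± 10.1 RPKM and Slc50a1 from 15.1 ± 0.775 to 10.99 ± 0.714 RPKM. So Slc2a1 and Slc5a1, a facilitative and a sodium-coupled glucose carrier, changed in opposite directions in both comparisons. Between DM-aKG and WT 7 were higher, with the smallest p for the glucose-6-phosphatase G6pc (1.94 ± 0.828 in WT, 61.8 ± 65.0 RPKM with DM-aKG) and Txnip, and 3 lower, among them Slc5a4a and the lactate carrier Slc5a12.

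Of 25 other genes of peptide and amino acid uptake, 24 were tested and most of those called followed Slc15a1. In control relative to WT 14 fell and 3 rose, with a median of -0.83. The aminopeptidase P gene Xpnpep2 went from 166 ± 21.9 to 67.5 ± 20.6 RPKM and the cationic amino acid exporter Slc7a7 from 96.6 ± 13.4 to 47.6 ± 12.6 RPKM, while Slc38a2 and the lysosomal peptide carrier Slc15a4 rose. With DM-aKG 9 rose and 1 fell, with a median of 0.53. Xpnpep2 rose to 142 ± 28.8 RPKM and the aminopeptidase A gene Enpep from 280.4 ± 61.2 to 472 ± 62.2 RPKM, and Slc15a4 fell by 0.30 on the log2 scale (adjusted p = 0.0294). The fall of Slc15a4 was not called under either other scaling: 12 rose and none fell under quantile normalization, 14 and none under median-of-ratios scaling. In replicates 1 to 4 alone 2 rose and none fell (median 0.31), and in replicates 5 to 7 alone 9 rose and 2 fell (median 0.79). Between DM-aKG and WT 4 were higher and 5 lower. Mep1a, a meprin of the brush border, and the peptide carrier Slc15a2 were higher, and Slc7a7 and Slc3a1, a subunit of the cystine carrier, lower.

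Of 21 other genes of chloride, bicarbonate and sulfate transport, 15 were tested. In control relative to WT 7 fell and 2 rose (median -0.34): the basolateral bicarbonate cotransporter Slc4a4 fell from 27.1 ± 3.43 to 13.4 ± 3.50 RPKM and the goblet cell product Clca1 from 746 ± 206 to 144 ± 87.4 RPKM. Slc26a9, a chloride carrier known from stomach, was at most 0.0104 RPKM in WT, 1.797 ± 0.975 RPKM in control and at most 0.258 RPKM with DM-aKG. It passed the filter on low values through control libraries alone, so its calls in both comparisons follow from the filter. The chloride channel Ano1 rose in control. With DM-aKG 3 rose and 2 fell (median 0.14), the falls being a smaller share than the 27.6% of all genes. The sulfate carrier Slc26a2, a close relative of Slc26a3, rose from 40.3 ± 14.6 to 63.2 ± 8.22 RPKM and Clca1 to 272 ± 104 RPKM, and Ano1 fell, as did Slc26a9 under the limit just given. Between DM-aKG and WT Slc26a2 and Ano1 were higher and 5 genes lower, Clca4a and Slc4a4 with the smallest p.

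Of 25 other genes of sodium, proton and potassium transport, 20 were tested. In control relative to WT 9 fell and 4 rose (median -0.22), the rises being a smaller share than the 43.2% of all genes. Atp1b1, a subunit of the sodium pump that drives uptake through Slc5a1, fell from 902 ± 147 to 424 ± 73.4 RPKM and the exchanger Slc9a2 from 62.2 ± 12.1 to 32.3 ± 4.91 RPKM. Unlike Slc9a3, Slc9a2 was therefore lower in control, and it stayed at 32.2 ± 6.00 RPKM with DM-aKG (log2 change from control -0.01, 95% interval -0.31 to 0.28). The pump regulator Fxyd3 rose from 13.7 ± 2.57 to 149 ± 34.999 RPKM, and the pump subunit Atp1b3 rose too. With DM-aKG 4 rose and 3 fell (median 0.14), the falls being a smaller share than the 27.6% of all genes. The potassium channel Kcnk5 and the epithelial sodium channel subunit Scnn1a rose. Fxyd3 fell to 22.3 ± 15.4 RPKM and the channel subunit Kcne3 from 31.7 ± 15.0 to 9.86 ± 2.96 RPKM. Between DM-aKG and WT 3 were higher, with Scnn1a (3.94 ± 0.581 and 6.80 ± 1.63 RPKM) and the exchanger cofactor Chp1 at the smallest p, and 5 lower, with Atp1b1 and Slc9a2 at the smallest p.

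Of 10 other aquaporins 7 were tested. Aqp9 and Aqp5 reached 1 RPKM in control libraries alone and passed the filter through them, so their calls, higher in control than in WT and lower with DM-aKG, follow from the filter. Aqp5 lay at 0.0101 ± 0.0126 RPKM in WT, 2.79 ± 1.86 RPKM in control and at most 0.728 RPKM with DM-aKG. Aqp11 and Aqp3 fell in control and rose with DM-aKG. Aqp1, known from endothelium and enterocytes, rose from 55.7 ± 22.5 in control to 122 ± 9.90 RPKM with DM-aKG and was also the 1 aquaporin called against WT, where it lay at 64.2 ± 30.3 RPKM. Of 14 other carbonic anhydrases 8 were tested. Car9, a hypoxia-inducible membrane enzyme, rose from 15.4 ± 1.62 in WT to 34.7 ± 7.22 RPKM in the control group and fell to 12.2 ± 2.94 RPKM with DM-aKG, and the cytosolic Car13 fell from 36.0 ± 13.6 to 14.0 ± 3.82 RPKM in control. With DM-aKG Car14 rose and Car2 fell, the latter from 3.62 ± 0.809 to 2.32 ± 0.632 RPKM and near the threshold (adjusted p = 0.0488). Under quantile normalization or median-of-ratios scaling 2 of the 8 were higher and 1 lower with DM-aKG, where 1 was higher and 2 lower without it. Car14 was higher than in WT as well.

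**Figure D4:**
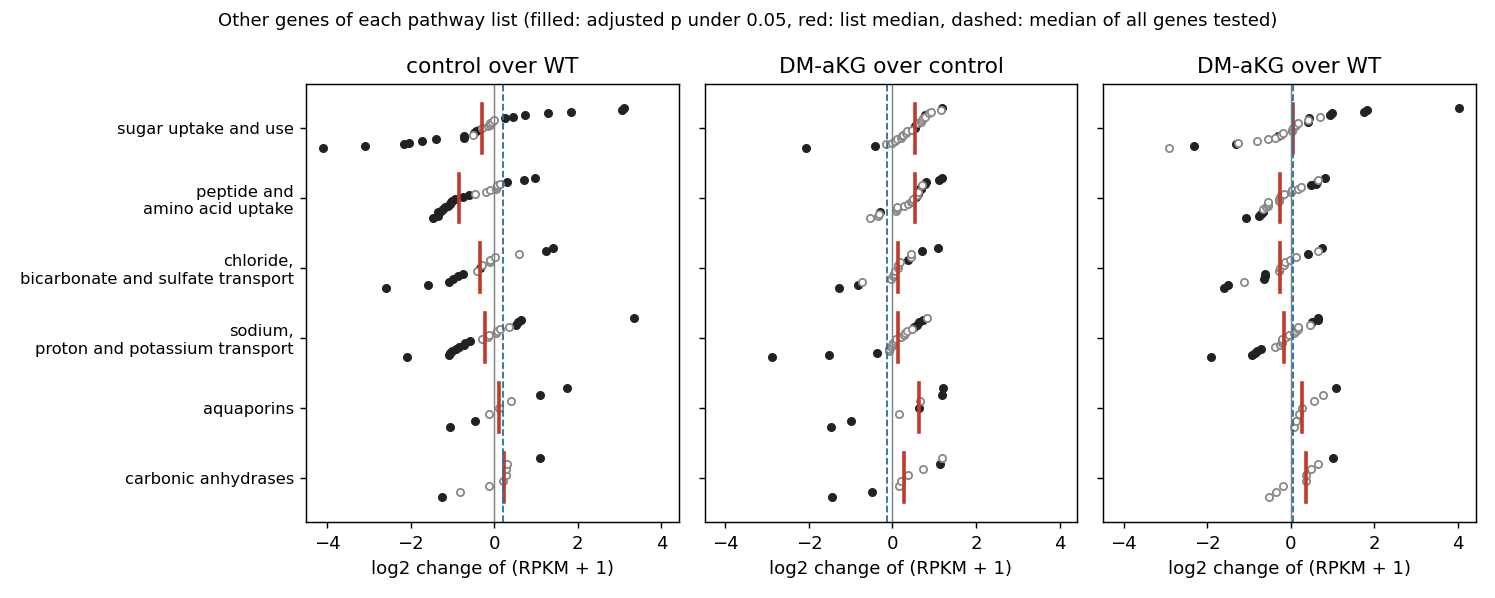
Log2 change of (RPKM + 1) of the other genes of 6 transport lists in the 3 comparisons, 1 point per gene, filled where the adjusted p is under 0.05, with the list median in red and the median of all genes tested as a dashed line. The medians of the peptide and amino acid list are -0.83, 0.53 and -0.26 in control over WT, DM-aKG over control and DM-aKG over WT.

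Likeness between genes was measured as Pearson's r of log2(RPKM + 1) over the 20 libraries, which include the group differences, and again on deviations from the group means. Slc2a2 was most like the amino acid carrier Slc7a8 (r = 0.828, 0.75 within groups), the hexose transporter Slc2a7 (0.819, 0.827) and Slc2a5 (0.792, 0.721). Slc15a1 was most like the sulfotransferase Sult1b1 (0.954, 0.879), H2-Q2 (0.95, 0.875) and Slc16a10, an aromatic amino acid carrier (0.946, 0.933). For Slc5a1 these were H2-Q4 (0.924, 0.703), the malic enzyme Me2 (0.923, 0.642) and Sucla2, a TCA cycle enzyme subunit (0.914, 0.701). Slc9a3 was most like Hif1a, the oxygen-regulated transcription factor (0.936, 0.892), then Sec61a2 (0.915, 0.867) and Zfpm1 (0.902, 0.86). In RPKM, Hif1a lay at 15.2 ± 3.07 in WT, at 37.8 ± 17.2 in control libraries and at 17.8 ± 10.7 with DM-aKG.

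The remaining tested genes had other neighbours. Slc2a5 was most like the aquaporin Aqp3 (0.861, 0.82), Slc35c2 (0.857, 0.829) and the chylomicron assembly gene Mttp (0.843, 0.794). For Slc26a3 they were the peroxisomal carrier Abcd3 (0.867, 0.824), the transcription factor Hlf (0.851, 0.644) and Dact1 (0.807, 0.674), and for Car4 the carrier Abcb10 (0.904, 0.832), Parp9 (0.872, 0.767) and Tvp23a (0.872, 0.767). Within the set, the 3 sugar transporters had r of 0.682 to 0.792 with each other (0.687 to 0.837 within groups). Slc9a3 had r of -0.472 with Slc5a1 and -0.468 with Slc15a1 over all libraries, but 0.0942 and 0.0124 within groups, so the opposite course was between groups and not among libraries of a group. These are descriptions over libraries that share 3 groups, with no test.

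Markers of cell types moved beside the set. Of 10 enterocyte markers 6 fell in control relative to WT with none rising, and 6 rose with DM-aKG with none falling. Under quantile normalization 1 rose in control and 4 rose with DM-aKG. Mgam and Sis, which are also in the sugar list, and Anpep, which is also in the peptide list, are among those that rose with DM-aKG, so the marker counts are not separate from those lists. Their summed level was 11540 to 26840 RPKM in WT, 6151 to 19130 RPKM in the control group and 14060 to 22330 RPKM in DM-aKG libraries. Of 8 pan-epithelial markers, Epcam among them, 2 rose and 2 fell in control, and 6 fell with DM-aKG, where the sum of 2421 to 3357 RPKM lay below every control library (3648 to 5145 RPKM). Under median-of-ratios scaling 2 of the 8 fell with DM-aKG (median -0.28, where it was -0.45), and 1 rose and 4 fell in control. Wnt target genes went the other way from the uptake genes, 11 of 12 higher in control than in WT and all 12 lower with DM-aKG, in these same libraries. Among them Lef1, Notum and Wif1 were at most 0.179, 0.208 and 0.312 RPKM in WT. They passed the filter on low values through Apc Min libraries, so their rises in control follow in part from the filter. Lef1 passed mainly through control libraries (median 0.216 RPKM with DM-aKG), and its fall with DM-aKG has the same limit. The part of any of these cell type and Wnt markers in the transporter results was not tested.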

How the data were processed

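RNA-seq was done on 20 mouse intestinal libraries, whose titles give group and replicate number. The authors deposited 1 table of normalized values per gene and library, taken as RPKM, that is, reads scaled by the authors for gene length and depth. The table names no unit, and its values are fractional with sums of 277634 to 369409 per library. The submitters' processing notes list CASAVA 1.8, HISAT2 2.0.4, Partek and mm10. What each did, the annotation and the strand setting are not given there. Low values gave a relative depth of 0.788 to 1.08 times the mean library. Of these low values 58.3 to 63.7% lay within 0.1 of a whole step, which did not allow reads to be recovered, and tests for counts were left out. No pair of libraries was identical.

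The 9 members and all gene lists were chosen with earlier results of these data known. After 26 names turned into dates were dropped, the filter left genes reaching 1 RPKM in 6 or more libraries. The log2(RPKM + 1) values of all 20 libraries were fitted with 3 groups in limma 3.58.1 (trend and robust empirical Bayes, statmod 1.5.0, R 4.3.3), 2-sided, with Benjamini-Hochberg adjustment over 12415 genes. This fitting was tested on simulated data. Of each pathway list the 2 called genes with the smallest p each way are named, and for each member the 3 genes with the highest r. Alternatives varied the scaling, filter, pseudocount, libraries and covariates. Positions are from GENCODE M21 (mm10) and promoters from RefSeq (GRCm38.p6). Python 3.11.15, pandas 2.3.3 and matplotlib 3.10.9 were used.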

Additional observations from a re-analysis of the deposited data

Results flagged for a closer look

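A single library stood apart in 5 of the 27 groups of values examined, by a gap to the next library that was large against the range of its group (Dixon's criterion, which chance meets in about 1 in 20 groups). DM-aKG replicate 5 was the highest of its group for 3 genes: Slc2a2 at 63.2 RPKM with the next at 35.4, Slc2a5 at 31.7 RPKM with the next at 26.3, and Slc26a3 at 85.4 RPKM with the next at 55.9. DM-aKG replicate 6 was the highest for Slc15a1 at 343 RPKM, with the next at 164. WT replicate 4 was the 1 WT library with Aqp8 above 0, at 0.0254 RPKM, which is about 1 step. The rise of Slc26a3 with DM-aKG stood without replicate 5, and the rise of Slc15a1 was not called without replicate 6, as given above.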

How the results depend on the processing

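Over 32 alternatives, 3 member changes kept direction and call in each: Slc5a1 and Slc15a1 lower in control than in WT, and Slc26a3 higher with DM-aKG than with control. For DM-aKG over control, 3 members were called higher and 1 lower. These counts became 5 and 0 under quantile normalization, 1 and 0 with the smooth muscle covariate, 1 and 0 in replicates 1 to 4, and 5 and 1 in replicates 5 to 7. None was lower under median-of-ratios scaling or a pseudocount of 0.1, where 14.8 and 27.1% of all genes were. The share of all genes called higher and lower moved too, from 5.89 and 27.6% to 13.7 and 14.8% under quantile normalization and to 1.79 and 18.8% with the smooth muscle covariate. For control over WT (1 higher, 4 lower) they became 0 and 2 with the smooth muscle covariate and 0 higher in replicates 1 to 4, while 3 were higher with no filter, Aqp8 and Car1 among them. For DM-aKG over WT (1 higher, 3 lower) the member counts became 0 and 1 in replicates 1 to 4, 0 and 0 in replicates 5 to 7, and 0 higher under median-of-ratios scaling or without WT replicates 2 and 4. In replicates 1 to 4, 18.4% of all genes were higher and 12.0% lower. Under median-of-ratios scaling 18.2% were higher, and without WT replicates 2 and 4 19.7% were. In replicates 5 to 7 only 4.37% of all genes were called for DM-aKG over WT. Leaving out 1 library gave 1 (without control replicate 7) to 4 higher and 0 to 1 lower for DM-aKG over control, 3 to 5 lower for control over WT, and 0 (without DM-aKG replicate 5) to 1 higher and 2 to 3 lower for DM-aKG over WT. Uncalled changes that turned direction were Car4 for DM-aKG over control (-0.74 with the smooth muscle covariate, -0.039 to 0.34 leaving out 1 library) and, for DM-aKG over WT, Slc2a2, Slc2a5 and Slc9a3. Slc2a2 was 0.068 under quantile normalization, 0.021 at a pseudocount of 0.1, 0.037 with the replicate sets as a factor, 0.26 in replicates 1 to 4, 0.55 with the proximal marker covariate and -0.42 to 0.27 leaving out 1 library. Slc2a5 was 0.005 in replicates 5 to 7, 0.16 with the proximal marker covariate and -0.17 to 0.055 leaving out 1 library, and Slc9a3 was -0.25 without WT replicates 2 and 4 and -0.014 to 0.55 leaving out 1 library. The cause of these shifts was not tested. The proximal marker covariate and leaving out both WT libraries were chosen after seeing the data.

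The shared replicate numbers did not pair the libraries: same-numbered libraries had deviations correlated at -0.46 to 0.60, and in 2 of 19 pairs was the own number the best match. With the replicate number as a block, DM-aKG over control had 3 higher and 1 lower, control over WT had 1 and 5, DM-aKG over WT had 1 and 3, and the block gave 0.037 for Slc2a2 for DM-aKG over WT. The shares of all genes higher and lower with the block were 6.1 and 29.0%, 45.6 and 16.7%, and 25.3 and 18.8% in the same order. The fit of replicates 5 to 7 alone rests on 3 control, 2 DM-aKG and 3 WT libraries. The RPKM values carry no read counts, so the counting error behind low values such as those of Aqp8 and Car1 could not be given.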
